A study of Mus musculus with 239 samples.

Results

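The genes described here encode the subunits of the 5 oxidative phosphorylation complexes. They were taken by gene symbol: rows named Nduf followed by a, b, c, s or v and a digit, the 4 Sdh subunits, names starting with Uqcr, Cyc1, Cox4 to Cox8, and names starting with Atp5. Of the 18850 genes in the expression table, 84 matched: 37 of complex I, 4 of complex II, 9 of complex III, 17 of complex IV and 17 of ATP synthase. Of these, 75 reached 1 FPKM (fragments scaled to transcript length and to all mapped fragments of the cell) in at least 10% of the 239 cells, and the mean log2(FPKM + 1) over those 75 was used as a score for each cell. The symbol rule has known imprecisions. Ndufa4 carries a complex I name, but its protein is now placed with complex IV. Cox7a2l encodes a factor that joins complexes into supercomplexes, and Atp5s and Atp5sl encode proteins that are not subunits of the ATP synthase itself.

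Complexes I to IV of the inner mitochondrial membrane pass electrons from NADH and succinate to oxygen, and complexes I, III and IV pump protons as they do so. ATP synthase lets the protons back and makes ATP. Most subunits are encoded in the nucleus, translated in the cytosol and imported, while a small set at the centre of complexes I, III, IV and ATP synthase is encoded by mitochondrial DNA. The mammary epithelium has an outer basal layer of contractile and progenitor cells and an inner luminal layer, which becomes secretory in pregnancy.

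The cells were single mammary epithelial cells from the mammary glands of female FVB mice, 3 to 4 months old. They form 4 groups: basal cells and 49 luminal cells from mice at day 12 of pregnancy, and 34 basal and 54 luminal cells from virgin mice. The sample labels give day 12 and the protocol day 12.5. The pregnant basal group is the rest of the 239 and the largest. Haematopoietic and endothelial cells had been depleted, an antibody to the endothelial cadherin CDH5 was part of the stain, and viable cells with intermediate CD24 and high CD29 were sorted as basal and those with high CD24 and low CD29 as luminal. Full-length cDNA was made on Fluidigm C1 microfluidic chips of 2 cell-size ranges. The labels do not say which mouse, pool of mice, day or chip a cell came from, so sorted population, pregnancy, animal and chip cannot be told apart. Each group therefore counts as 1 sample and no difference was tested. Differences are means over cells, SDs describe the spread over cells, and a gene was counted as different at a difference of 1 or more in mean log2(FPKM + 1), which is a rule of size.

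The depth read from the low FPKM values ranged from 1.13 to 40.3 M (mega) fragments per cell, with a median of 9.03 M in pregnant basal, 8.67 M in pregnant luminal, 6.09 M in virgin basal and 8.52 M in virgin luminal cells. The number of genes at 1 FPKM or more differed more: the medians were 2734, 3653, 1825 and 3773 in the same order. Cells with 2000 or more such genes numbered 93 pregnant basal, 48 of 49 pregnant luminal, 12 of 34 virgin basal cells and 53 of 54 virgin luminal cells. Results are given over all cells and over these. By group the lineage markers followed the sort labels: the mean of 10 basal identity genes was 7.67 in pregnant basal, 1.24 in pregnant luminal, 5.29 in virgin basal cells, against 0.20 in virgin luminal cells on the log2(FPKM + 1) scale, and that of 10 luminal identity genes was 1.52, 5.77, 1.28 and 6.30 in the same order. The basal sort also held cells with the endothelial gene Cdh5 at 1 FPKM or more, 5 in pregnancy and 7 of 34 in virgin mice. The summed FPKM of 9 endothelial genes reached 1985 in a pregnant basal and 6702 in a virgin basal cell, against 247 in a pregnant luminal and 27 in a virgin luminal cell. Cdh5, Kdr, Tek, Esam and Cldn5 were at 0 in every virgin luminal cell. Single cells stood against their label. A pregnant luminal cell had a basal identity mean of 8.80, a virgin basal cell a luminal identity mean of 6.25, and a pregnant luminal cell a mean of 9.04 over 7 fibroblast genes, which summed to 9808 FPKM. Of the basal identity, luminal identity, endothelial and fibroblast lists, one other than the cell's own had the highest mean in 4 pregnant basal cells (endothelial in all 4), 5 pregnant luminal cells (basal identity in 4, fibroblast in 1), 7 virgin basal cells (endothelial in 6, fibroblast in 1) and 0 virgin luminal cells. Without these cells, the difference of the subunit score described below was -2.76 for virgin basal minus virgin luminal, -1.26 for pregnant basal minus pregnant luminal, 0.51 for pregnant luminal minus virgin luminal and 2.01 for pregnant basal minus virgin basal.

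Promoters of respiratory genes are known for sites of NRF1, of the ETS factor GABPA (also called NRF2), of YY1 and of the estrogen-related receptors, so the RefSeq promoter windows (GRCm38.p6, 250 bases before to 50 after the gene start) of the 69 members with an entry were searched on both strands. The NRF1 motif, GCGCA followed by any base and then GCGC, stood in 16 of 69 member promoters (23.2%), in 11.6% of the 6146 promoters of genes that 10% or more of the cells held at 1 FPKM, and in 4.78% of all 27025 promoters. AAGATGGCG, for YY1, stood in 7 (10.1%), against 3.84% and 1.49% of the same 2 sets. CCGGAAGT, for ETS factors, stood in 5 (7.25%), against 9.4% and 4%. TCAAGGTCA, for estrogen-related receptors, stood in 2 (2.9%), against 0.26% and 0.407%. The ETS string was thus no more frequent in member promoters than in those of other genes found in these cells. The 4 member promoters that held 2 of these motifs are printed because they show where the strings lie. Motif matches are in capitals, each sequence runs 5′ to 3′ on the gene's strand, and all 4 genes lie on the minus strand. Atp5g3 (chr2:73911277-73911576) has a match to the NRF1 and one to the estrogen-related receptor motif. Atp5h (chr11:115419870-115420169) has one to the NRF1 and one to the ETS motif, Ndufs6 (chr13:73328433-73328732) one to NRF1 and one to YY1, and Sdhd (chr9:50603800-50604099) one to NRF1 and one to the estrogen-related receptor motif. Matches on the opposite strand are printed as their reverse complement.
Atp5g3: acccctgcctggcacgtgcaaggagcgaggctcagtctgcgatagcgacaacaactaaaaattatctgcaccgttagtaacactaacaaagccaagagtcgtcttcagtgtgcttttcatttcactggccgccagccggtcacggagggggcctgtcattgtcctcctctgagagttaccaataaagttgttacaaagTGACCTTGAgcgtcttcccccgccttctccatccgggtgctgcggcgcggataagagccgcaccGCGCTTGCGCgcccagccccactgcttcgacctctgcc
Atp5h: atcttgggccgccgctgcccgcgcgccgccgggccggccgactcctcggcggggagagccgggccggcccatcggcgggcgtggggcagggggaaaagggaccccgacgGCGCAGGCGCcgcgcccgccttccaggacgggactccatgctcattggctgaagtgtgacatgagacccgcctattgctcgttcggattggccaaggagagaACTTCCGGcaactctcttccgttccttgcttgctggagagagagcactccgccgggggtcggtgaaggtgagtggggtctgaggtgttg
Ndufs6: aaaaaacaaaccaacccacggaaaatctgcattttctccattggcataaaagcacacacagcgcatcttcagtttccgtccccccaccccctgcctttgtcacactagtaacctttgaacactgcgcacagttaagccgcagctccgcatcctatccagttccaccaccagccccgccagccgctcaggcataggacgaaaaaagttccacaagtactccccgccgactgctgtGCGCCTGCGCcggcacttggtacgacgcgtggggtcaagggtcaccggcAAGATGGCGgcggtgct
Sdhd: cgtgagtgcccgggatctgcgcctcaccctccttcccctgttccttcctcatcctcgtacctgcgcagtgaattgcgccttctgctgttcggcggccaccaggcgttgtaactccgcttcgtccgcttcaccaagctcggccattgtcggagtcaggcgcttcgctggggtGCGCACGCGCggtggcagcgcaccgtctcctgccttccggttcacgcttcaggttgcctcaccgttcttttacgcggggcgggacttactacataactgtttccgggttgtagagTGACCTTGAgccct
A match is a string of letters, and binding was not measured.

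The most abundant member of each complex over all cells was Ndufa4 for the complex I names (mean 487 FPKM), Sdhb, the iron-sulfur subunit of succinate dehydrogenase, for complex II (131 FPKM), the hinge protein Uqcrh for complex III (374 FPKM), Cox6a1 for complex IV (1064 FPKM) and Atp5l, subunit g of the membrane part, for ATP synthase (296 FPKM). At the other end, Ndufs5, an accessory subunit of complex I, averaged 2.65 FPKM and reached 1 FPKM in 34.3% of cells. Within each group the mean level of the 75 members was lower where the annotated transcripts were longer, with Spearman rho across members of -0.40 in pregnant basal, -0.39 in pregnant luminal, -0.37 in virgin basal cells and -0.36 in virgin luminal cells. These points share libraries and the length used to scale FPKM. Of 83 members with an annotated transcript, 13 had over 20% of their 50-base windows in another annotated gene, led by Atp5l (68.5%), Uqcrb (43.2%), Atp5g2 (38.3%), Ndufb4 (37%) and Atp5h (36.9%). The sources used here do not say how reads of such windows were assigned, so the levels of these 13 genes are uncertain. Atp5o has in addition a long annotated span (chr16:91684398-91926982, GRCm38).

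**Figure D1:**
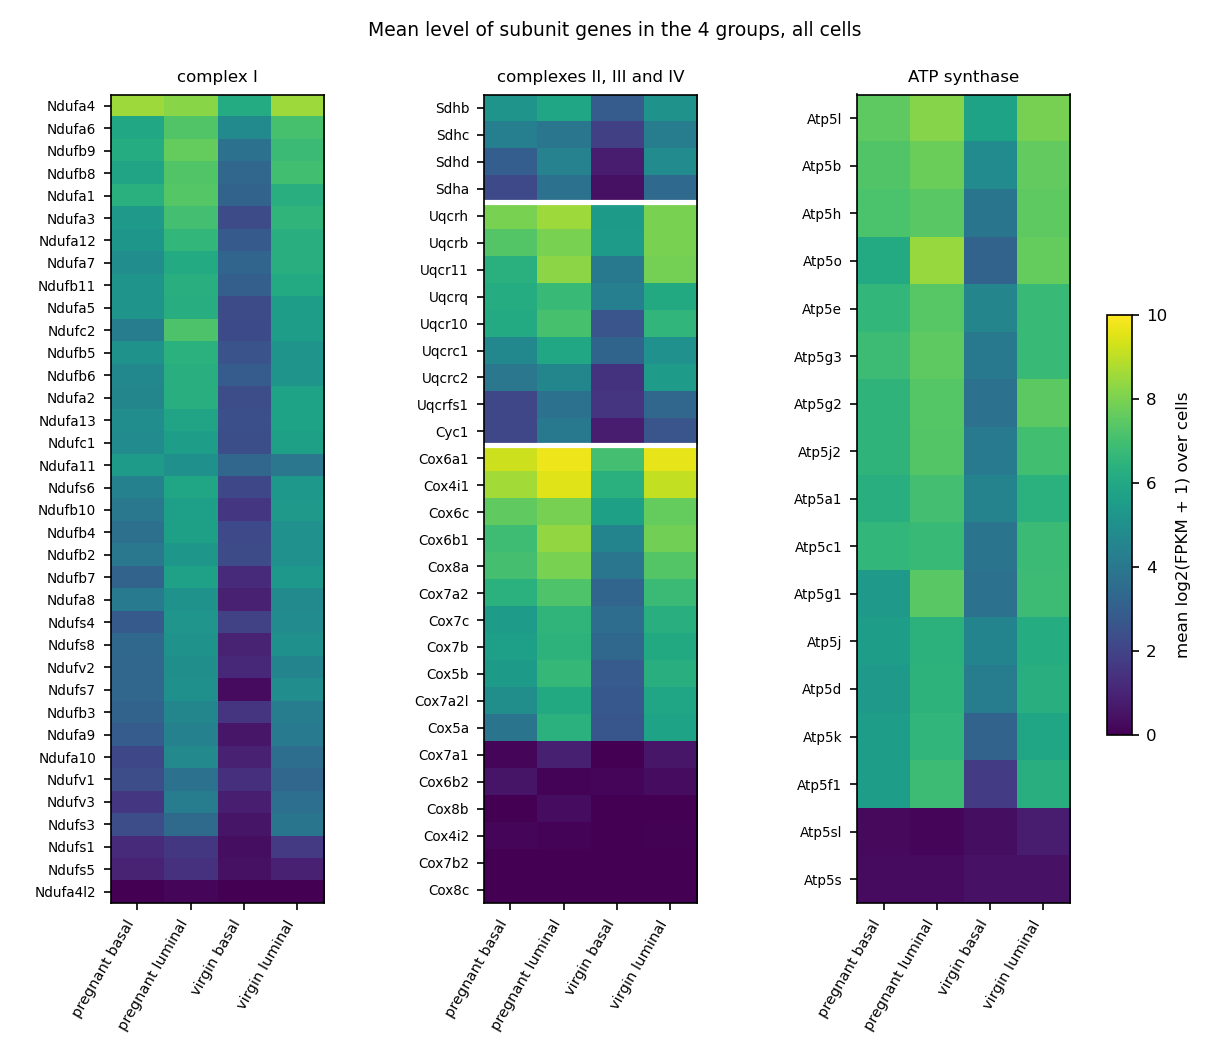
Mean log2(FPKM + 1) over all cells (colour) of 83 of the 84 genes (rows, ordered by mean level within a complex, with white lines between complexes II, III and IV) in the 4 groups (columns). The virgin basal column is darkest for every scored member drawn, in all 5 complexes, and 6 Cox isoform genes, Ndufa4l2, Atp5s and Atp5sl are near 0 in all groups.

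The 9 genes outside the score are mostly tissue-restricted isoforms. Cox7a1, the heart and muscle isoform of subunit VIIa, reached 1 FPKM in 4 pregnant basal, 9 of 49 pregnant luminal, 0 of 34 virgin basal cells and 10 of 54 virgin luminal cells. A count of 0 of 34 allows a share of up to 8.82%. Its partner isoform Cox7a2 reached 1 FPKM in 98 pregnant basal, 49 of 49 pregnant luminal, 17 of 34 virgin basal cells and 52 of 54 virgin luminal cells. Cox8b, a muscle and brown fat isoform, reached 1 FPKM in 4 of 49 pregnant luminal cells, up to 38.4 FPKM, and in 0 cells of the other 3 groups, which allows shares of up to 2.94% in pregnant basal, 8.82% in virgin basal cells and 5.56% in virgin luminal cells. Cox6b2, known from testis, reached 1 FPKM in 14 pregnant basal, 1 of 49 pregnant luminal, 2 of 34 virgin basal cells and 4 of 54 virgin luminal cells, whereas the widely expressed Cox6b1 did so in 97, 49, 22 and 54. Cox4i2, the isoform linked to low oxygen, was found in 2, 2, 0 and 1 cells in the same order of groups, and Ndufa4l2 in 1 pregnant luminal cell. The testis isoforms Cox7b2 and Cox8c reached 1 FPKM in 0 of 239 cells. Atp5s was found in 7, 3, 2 and 7 cells and Atp5sl in 5, 2, 3 and 12.

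**Figure D2:**
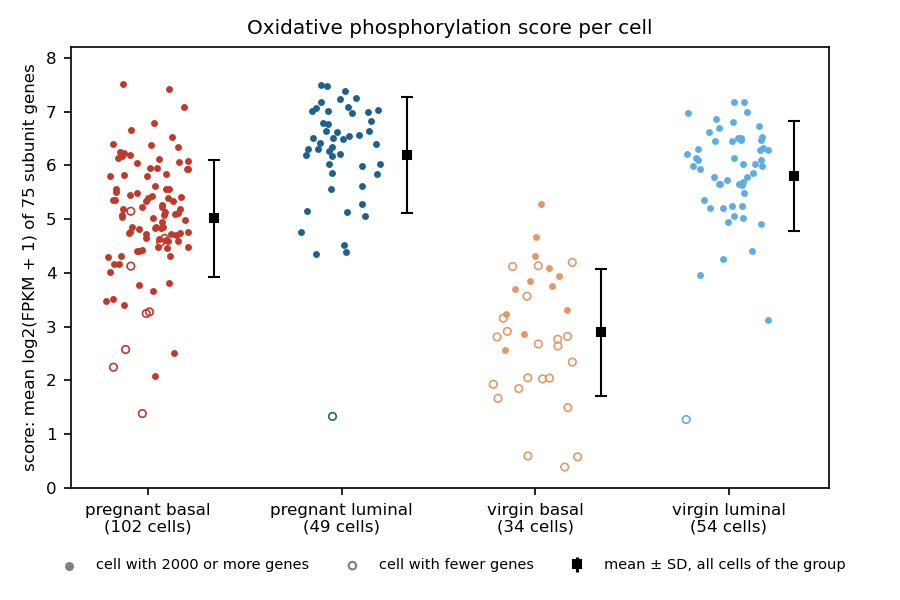
Score of each cell (points), the mean log2(FPKM + 1) of 75 subunit genes, with the mean and SD over all cells of the group (squares and bars). Open points are cells with fewer than 2000 genes. Means are 5.01 in pregnant basal, 6.19 in pregnant luminal, 2.89 in virgin basal cells, against 5.80 in virgin luminal cells.

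The first comparison asks how basal cells differ from luminal cells in virgin mice. Virgin basal cells had the lowest mean score of the 4 groups. It was 2.89 ± 1.18 in virgin basal cells, against 5.80 ± 1.03 in virgin luminal cells (SD over 34 and 54 cells), a difference of -2.91. All 34 virgin basal cells lay below the virgin luminal median of 6.00, and 3 lay below the lowest virgin luminal cell. A virgin basal cell had a median of 34.5 of the 84 members at 1 FPKM or more, with a range of 3 to 70, against 70 and a range of 28 to 76 in virgin luminal cells. The 75 members that passed the filter of this comparison (25% or more of the cells at 1 FPKM in whichever group had the higher mean) were the same 75 as in the score. Of them, 73 were lower by 1 or more and 0 higher. Over all genes, 48% were lower by 1 or more and 3.88% higher. The median difference was -2.96 over the members and -0.96 over all genes tested.

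Cells with 2000 or more genes gave a smaller difference of the same sign. The 12 virgin basal cells scored 3.80 ± 0.75 and the 53 virgin luminal cells 5.89 ± 0.82, which is a difference of -2.09, and 12 of 12 virgin basal cells were below the virgin luminal median. Of the 75 members, 62 were lower by 1 or more and 0 higher, against 35.3% and 7.89% of all genes, with a median of -1.99 over the members and -0.60 over all genes. The number of genes still differed in these cells, at a median of 2497 in virgin basal cells, against 3781 in virgin luminal cells. Between 2000 and 3000 genes, 10 virgin basal cells had a score of 3.56 ± 0.55 and 5 virgin luminal cells one of 4.69 ± 1.34, a difference of -1.13, and 36 of 70 members were lower by 1 or more and 4 higher, against 34.6% and 20.3% of all genes. These 2 sets of cells overlapped, from 2.57 to 4.31 in virgin basal and from 3.12 to 6.46 in virgin luminal cells. In the middle 50% of all cells by gene number, 6 virgin basal and 23 virgin luminal cells, the difference was -1.64, and 50 of 74 members were lower by 1 or more and 1 higher, against 31.2% and 15.6% of all genes. In virgin basal cells with Cdh5 under 1 FPKM the difference was -2.76 over all cells and -2.01 over those with 2000 or more genes.

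Complex I, the entry point for NADH, had a median difference of -3.09 over 36 members, with 34 lower by 1 or more. Its 7 nuclear core subunits, which hold the flavin and iron-sulfur clusters, had a median ratio of mean FPKM, virgin basal over virgin luminal, of 0.178, and of 0.152 in cells with 2000 or more genes, although 2 of the 7 ratios were above 1 over all cells. Ndufs7, a core iron-sulfur subunit that borders the quinone site (chr10:80249121-80256794, GRCm38), ranged from 0 to 56 FPKM with a median of 0 in virgin basal cells, and from 0 to 385 with a median of 51.2 in virgin luminal cells. It reached 1 FPKM in 2 of 34 virgin basal cells (5.88%, exact 95% interval 0.72 to 19.7%), against 50 of 54 virgin luminal cells (92.6%, 82.1 to 97.9%), and its difference of -4.60 was the largest of any member. In the cells with 2000 or more genes it was found in 1 of 12 virgin basal cells, against 49 of 53 virgin luminal cells. Ndufs3, another core subunit, reached 1 FPKM in 4 of 34 virgin basal cells, against 39 of 54 virgin luminal cells, a difference of -3.33. Ndufv1, which binds NADH and the flavin, had a median of 0 FPKM in virgin basal cells, against 13.6 in virgin luminal cells, yet a mean of 45.3 and 41.2 FPKM. It reached 1 FPKM in 7 of 34 virgin basal cells, up to 867 FPKM, and the mean was 6.14 in virgin basal cells, against 41.9 FPKM in virgin luminal cells with 2000 or more genes. Ndufs1, the largest core subunit, was low throughout, at 1 FPKM in 3 of 34 virgin basal cells, against 21 of 54 virgin luminal cells. The smallest differences were those of the accessory subunits Ndufs5 (-0.48) and Ndufa11 (-0.66) and of Ndufs1 (-1.30).

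Complex II, the succinate dehydrogenase that also serves the citric acid cycle, had all 4 members lower by 1 or more in both sets of cells. Sdhd, a membrane anchor whose promoter is printed above, reached 1 FPKM in 5 of 34 virgin basal cells, against 41 of 54 virgin luminal cells, a difference of -4.01, and in 1 of 12 and 41 of 53 cells with 2000 or more genes, a difference of -4.34. Sdha, the flavoprotein, had a highest value of 18.4 FPKM in virgin basal cells and 206 in virgin luminal cells, with medians of 0 and 18.7. Sdhb had a median of 0.034 and a highest value of 1338 FPKM in virgin basal cells, against 45 and 420 FPKM in virgin luminal cells. Sdhc differed by -2.27.

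In complex III, Uqcrc2, a core protein (chr7:120635176-120659524), had a median of 0.0103 FPKM in virgin basal cells, against 89.1 in virgin luminal cells, a difference of -4.05 that was -2.75 with 2000 or more genes. Its partner core protein Uqcrc1 differed by -1.85 over all cells but by -0.36 in cells with 2000 or more genes, where its medians were 59.4 FPKM in virgin basal cells, against 63.8 in virgin luminal cells. The Rieske iron-sulfur protein gene Uqcrfs1 was the only member of the 75 with a positive difference there, 0.29, and was found in 8 of 12 virgin basal cells, against 42 of 53 virgin luminal cells. The transcripts of the 2 core proteins thus gave unlike differences in the same cells, of which 12 were virgin basal. Cyc1, cytochrome c1, reached 1 FPKM in 4 of 34 virgin basal cells, against 29 of 54 virgin luminal cells.

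Members of complex IV and ATP synthase were found in more virgin basal cells, in 61.8% at the median for either, against 38.2% for complex I, 20.6% for complex II and 47.1% for complex III. Cox4i1, the largest nuclear subunit of cytochrome c oxidase, ranged from 0 to 1683 FPKM with a median of 181 in virgin basal cells, and from 1.07 to 1774 with a median of 566 in virgin luminal cells. With 2000 or more genes it was found in 12 of 12 virgin basal cells, against 53 of 53 virgin luminal cells, and differed by -0.90. Cox6a1 had a mean FPKM of 1139 in virgin basal cells, against 1042 in virgin luminal cells, but a difference of -2.61 on the log2 scale, and 9 of the 34 virgin basal cells were under 1 FPKM. Cox5b, an assembly and regulatory subunit, reached 1 FPKM in 17 of 34 virgin basal cells, against 52 of 54 virgin luminal cells.

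For ATP synthase the parts of the enzyme differed by unlike amounts. The 5 genes of the catalytic head and its central stalk had a mean level of 4.39 in virgin basal cells. It was 6.77 in virgin luminal cells, a difference of -2.38. The 4 genes of the peripheral stalk, which holds the head still against the rotor, had 3.34 and 6.90, a difference of -3.56. The peripheral stalk genes Atp5f1 (-4.50) and Atp5o (-4.45) had the largest differences after Ndufs7. Atp5f1 (chr3:105942698-105960099) had a median of 0 FPKM in virgin basal cells, against 111 in virgin luminal cells, and was found in 10 of 34 and 50 of 54 cells. The 3 genes of the c ring, the rotor that protons turn, had means of 3.84 and 7.03 in the same order of groups, which differ by -3.19, and the 3 scored small membrane subunits 4.40 and 6.93, a difference of -2.54. The peripheral stalk genes Atp5f1, Atp5h and Atp5o share over 20% of their windows with other genes. The levels of 3 of the 4 peripheral stalk genes are thus uncertain, as are those of Atp5g2 in the ring and Atp5l in the membrane. The catalytic subunits Atp5a1 and Atp5b differed by -1.91 and -2.74 over all cells and by -0.46 and -0.83 with 2000 or more genes, while Atp5o was at -4.38 there.

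**Figure D3:**
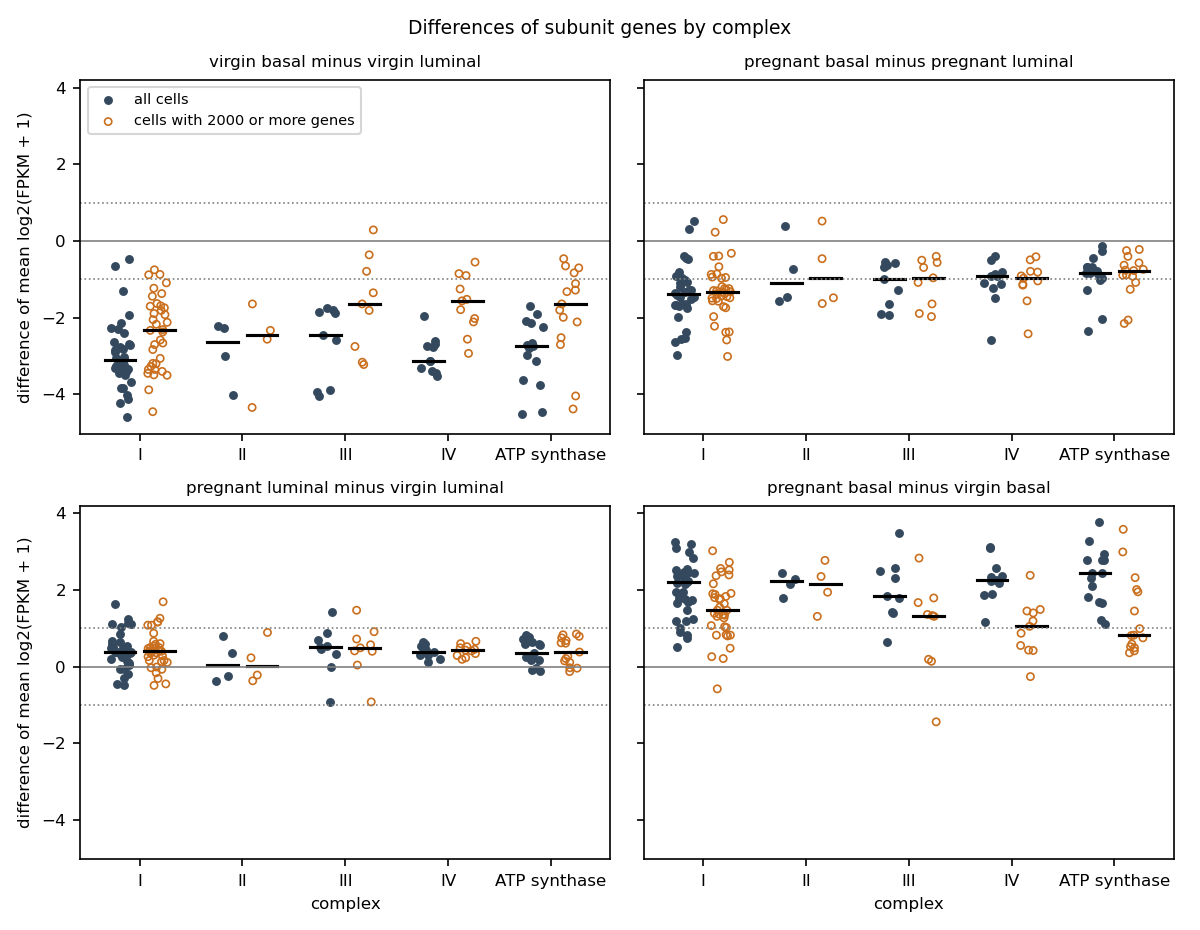
Difference of mean log2(FPKM + 1) for each of 75 members (points) by complex in the 4 comparisons, over all cells (filled) and over cells with 2000 or more genes (open), with the median of each complex (black bars) and dotted lines at 1 and -1. In virgin mice all filled points lie below 0, and the filled pregnant luminal minus virgin luminal points lie between -0.93 and 1.62.

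Fewer virgin basal cells held each member. The median over members of the percent of cells holding a gene at 1 FPKM was 47.1% in virgin basal cells, against 92.6% in virgin luminal cells, and 66.7% and 94.3% with 2000 or more genes. Among cells at 1 FPKM or more, the median level of a member was 0.762 times as high in virgin basal as in virgin luminal cells at the median over members, and 22 of 75 were higher in virgin basal cells. On the mean FPKM scale the median ratio was 0.623, with 15 of 75 above 1. Neither the 22 nor the 15 was counted over all genes. As a share of all FPKM of a cell, the 84 members summed to a median of 2.59% in virgin basal cells, against 3.75% in virgin luminal cells, and to 2.51% and 3.8% with 2000 or more genes. Depth and the number of genes were lower in virgin basal cells too, and their part in the number of empty cells was not tested.

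**Figure D4:**
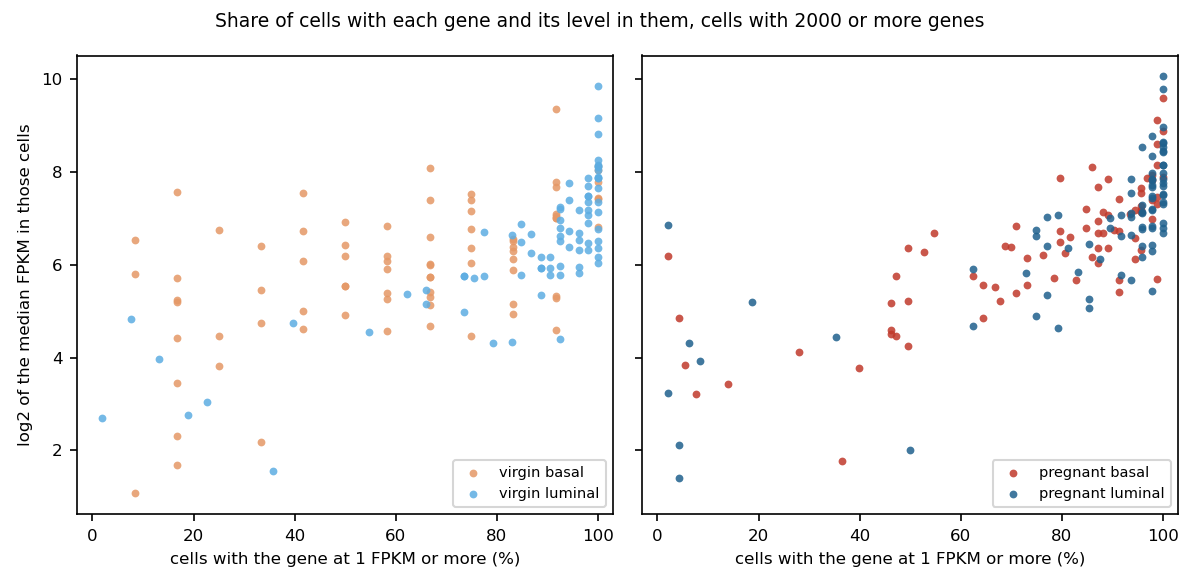
For each member with a cell at 1 FPKM or more, the percent of cells that reach 1 FPKM (x axis) and the log2 of its median FPKM in those cells (y axis), in virgin cells (left) and pregnant cells (right) with 2000 or more genes. Virgin basal points spread over the whole width, with a median share of 66.7% over the 75 scored members, while virgin luminal points cluster at the right, with 94.3%.

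Lists of other mitochondrial genes are read against the same background, 48% of all genes lower by 1 or more and a median of -0.96. Among 16 citric acid cycle genes 14 were lower by 1 or more, with a median of -2.50, led by Mdh2, malate dehydrogenase (-4.09), and Suclg1, a subunit of succinyl-CoA ligase (-3.24). Among 18 tested genes of mitochondrial import and ribosomes 15 were lower, with a median of -1.68, and the chaperonin gene Hspe1 differed by -3.44. Of 22 tested assembly factors of the complexes 12 were lower (median -1.05), which is near that background, with Coa3, a factor of complex IV, at -3.66. Of 13 carriers, exchangers and inhibitors 11 were lower (median -2.22), among them the outer membrane channel gene Vdac1 (-3.49). Glycolysis genes had 9 of 15 lower (median -1.37), and cytosolic ribosomal protein genes 5 of 26 (median -0.57). In the cells with 2000 or more genes the ribosomal protein median was 0.10, that of the citric acid cycle -1.55, and that of glycolysis -0.92. Genes for regulators of respiratory genes were mostly too low to compare: 6 of 14 passed the filter, and Nrf1 itself reached 1 FPKM in 8.82% of virgin basal cells, against 16.7% of virgin luminal cells. None of the listed subunits encoded by mitochondrial DNA was found by name among the genes of these data, so they were not analysed here.

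The second comparison sets basal against luminal cells at day 12 of pregnancy. The score averaged 5.01 ± 1.09 in pregnant basal cells, against 6.19 ± 1.08 in pregnant luminal cells (SD over cells), a difference of -1.18, and 96 pregnant basal cells, all but 6, were below the pregnant luminal median of 6.42. Of 75 members, 43 were lower by 1 or more and 0 higher, against 28.8% and 9.18% of all genes, and the medians were -1.09 over the members and -0.57 over all genes. As a share of all FPKM of a cell, however, the 84 members summed to a median of 3.67% in pregnant basal cells and 3.35% in pregnant luminal cells, the opposite order to the score. In cells with 2000 or more genes these shares were 3.68% and 3.39%, and the score difference was -1.13, with 40 members lower and 0 higher, against 26.9% and 9.40% of all genes. With a pseudocount of 10 in place of 1, 15 members were lower over all cells and 14 over these. The share of all genes was not computed at that pseudocount, so these counts lack a background. The median number of genes was 2792 in pregnant basal cells, against 3656 in pregnant luminal cells of that set. Between 2000 and 3000 genes, 64 pregnant basal cells scored 4.89 ± 0.88 and 6 pregnant luminal cells 5.28 ± 0.76, a difference of -0.39, with 20 of 74 members lower by 1 or more and 8 higher, against 21.5% and 16.3% of all genes.

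Complex I had the lowest median, -1.38, with 28 of 36 members lower by 1 or more, and ATP synthase the highest, -0.83, with 4 of 15. Ndufc2, an accessory subunit of the membrane arm (chr7:97400003-97407802), ranged from 0 to 401 FPKM with a median of 28.5 in pregnant basal cells and from 0 to 471 with a median of 180 in pregnant luminal cells, a difference of -2.98. Ndufv3, a small accessory subunit of the NADH-binding module, was found in 36.3% of pregnant basal cells, against 83.7% of pregnant luminal cells, a difference of -2.64. In complex IV, Cox5a, which binds the matrix face of the catalytic core, had a median of 19.5 FPKM in pregnant basal cells, against 108 in pregnant luminal cells (-2.57), and Atp5o 165 and 484. Of these 4 genes, Ndufv3 was found in 41 and the others in 48 or 49 of 49 pregnant luminal cells.

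A few members did not share the lower basal level. Ndufa11, an accessory subunit that takes part in joining complexes I and III, had a median of 64 FPKM in pregnant basal cells, against 43.6 in pregnant luminal cells, a difference of 0.51. Sdhc, the other membrane anchor of complex II, differed by 0.39, with medians of 43.2 and 14.3 FPKM. Ndufa4 differed by 0.31, with 543 and 429 FPKM. All 3 differences are small beside the SDs over cells of 1.81 to 3.28 on that scale.

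Among the lists, citric acid cycle genes had 9 of 16 lower by 1 or more (median -1.66), led by Pdhb of pyruvate dehydrogenase (-2.99), and import and ribosome genes 14 of 19 (median -1.42), led by the inner membrane translocase gene Timm23 (-3.30). Glycolysis was split: Aldoc (-4.55) was lower and Ldhb (2.60) and Pfkp (2.06) higher on the basal side, and the list's median was -0.22. Of 13 tested carriers, exchangers and inhibitors, 7 were lower by 1 or more and 1 higher (median -1.01). The 1 higher was the ADP/ATP exchanger gene Slc25a4, the carrier that feeds ATP synthase, at 1.63. Ribosomal protein genes had 0 of 26 past 1 (median -0.52).

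The third comparison follows luminal cells into pregnancy. Pregnant luminal cells scored 6.19 ± 1.08 and virgin luminal cells 5.80 ± 1.03 (SD over 49 and 54 cells), a difference of 0.39 that is within the spread over cells, and 35 of 49 pregnant luminal cells lay above the virgin luminal median. Of 75 members, 7 were higher by 1 or more and 0 lower, against 8.01% and 8.31% of all genes, so this share is near the background. With 2000 or more genes 7 were again higher and 0 lower, against 7.98% and 8.40% of all genes. Between 2000 and 3000 genes, in 6 and 5 cells, 28 of 74 were higher and 11 lower, against 26.2% and 27.4%. With a pseudocount of 10, 1 member was higher, and the share of all genes was not computed there. The median was 0.39 over the members and -0.02 over all genes. The ratio of mean FPKM was above 1 for 61 of 75 members, with a median of 1.23. In cells at 1 FPKM or more, 63 of 75 had a higher median level in pregnant luminal cells, 1.37 times at the median over members, while the share of cells was the same at the median. Neither the 61 nor the 63 was counted over all genes. The 84 members summed to a median of 3.35% of all FPKM in a pregnant luminal cell and 3.75% in a virgin luminal cell, the opposite order to the score, and to 3.39% and 3.8% with 2000 or more genes. Without the cells in which another lineage list was the highest, 11 of 75 members were higher by 1 or more and 0 lower in cells with 2000 or more genes, against 9.98% and 8.35% of all genes.

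Of the 7, 6 belong to complex I, which supplies 36 of the 75 members tested. As the 7 are near the background share, no pattern by complex is read from them. Ndufc2 was at 180 FPKM in the median pregnant luminal cell and at 46.3 FPKM in the median virgin luminal cell, a difference of 1.62. Ndufb5, another membrane-arm subunit (chr3:32736990-32751566), had 134 and 58.5 FPKM and differed by 1.23. The others, outside the rule for named genes and given because they are few, were Ndufb6 (1.13), Ndufa1 (1.12), Ndufa10 (1.10) and Ndufa11 (1.04). Cyc1 of complex III (chr15:76343523-76346260) was found in 41 of 49 pregnant luminal cells, against 29 of 54 virgin luminal cells, with medians of 24.4 and 2.64 FPKM and a difference of 1.43. The difference was above 0 for 62 of 75 members, against 3028 of all 6195 genes tested. Among the members that were not above 0 were Uqcrc2 (-0.93), with medians of 47.5 FPKM in pregnant luminal cells beside 89.1 FPKM in virgin luminal cells, and Ndufs3 (-0.45). The 7 complex I core genes had a mean level of 3.83 in pregnant luminal cells and of 3.82 in virgin luminal cells, and the 29 scored accessory genes 5.89 and 5.38.

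The 2 luminal groups differed in the levels of hormone-sensing and alveolar genes, and whether their cell types differed was not tested. The mean of 9 hormone-sensing genes was 0.44 in pregnant luminal cells and 3.28 in virgin luminal cells, and that of 10 alveolar genes 7.90 and 4.52. In virgin luminal cells, the 33 with the estrogen receptor gene Esr1 at 1 FPKM or more had a score of 6.10 ± 0.84 and the 21 others one of 5.34 ± 1.14, with 3912 and 3485 genes at the median. Set against those 21 cells alone, pregnant luminal cells had a score higher by 0.85, and 27 of 75 members were higher by 1 or more and 0 lower, against 10.9% and 5.10% of all genes. For cells with 2000 or more genes the difference was 0.75, with 22 members higher and 0 lower, against 9.50% and 5.68% of all genes. The 10 most abundant genes held a median of 27.9% of the FPKM of a pregnant luminal and 11.1% of a virgin luminal cell. With FPKM rescaled without them the score difference was 0.24, the median over members 0.26 and that over all genes -0.16.

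Beside the members, citric acid cycle genes had 6 of 16 higher by 1 or more and 1 lower (median 0.61), with citrate synthase, Cs, at 1.63. The mitochondrial ribosomal gene Mrpl12 was higher by 2.13 and Slc25a4 by 1.99, while Vdac1 was lower by 1.43. Of 14 regulators of respiratory genes 7 passed the filter, with a median of 0.26, and 1 was higher by 1 or more. This was Myc, whose product is known to act on many mitochondrial genes. It differed by 3.13 and was found in 83.7% of pregnant luminal cells, against 37% of virgin luminal cells. Any part of Myc in the levels of the members was not tested. Ribosomal protein genes had a median of 0.59 with 26 of 26 above 0.

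The fourth comparison sets basal cells in pregnancy against virgin basal cells. The score averaged 5.01 ± 1.09 in pregnant basal cells, against 2.89 ± 1.18 in virgin basal cells (SD over cells), a difference of 2.12, and 41 pregnant basal cells were above the highest virgin basal cell. Of 75 members, 70 were higher by 1 or more and 0 lower, against 30.7% and 0.991% of all genes, with medians of 2.23 over the members and 0.61 over all genes. As a share of all FPKM of a cell, the 84 members summed to a median of 3.67% in pregnant basal cells and 2.59% in virgin basal cells. The same virgin basal cells stand in the first comparison, so their low values enter both.

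Among cells with 2000 or more genes, 93 pregnant basal cells scored 5.16 ± 0.95 and 12 virgin basal cells 3.80 ± 0.75, a difference of 1.37. Of the members, 50 were higher by 1 or more, against 16.8% of all genes, and 1 was lower, against 6.92%. The median was 1.36 over the members and 0.02 over all genes. Here the numbers of genes were close, with medians of 2792 in pregnant basal cells, against 2497 in virgin basal cells. Between 2000 and 3000 genes, 64 pregnant basal cells scored 4.89 ± 0.88 and 10 virgin basal cells 3.56 ± 0.55, a difference of 1.33, and 45 of 74 members were higher by 1 or more and 2 lower, against 18.5% and 9.60% of all genes. With Cdh5 under 1 FPKM the difference was 1.32 over cells with 2000 or more genes. With a pseudocount of 10, 25 members were higher by 1 or more in cells with 2000 or more genes. The share of all genes was not computed at that pseudocount.

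**Figure D5:**
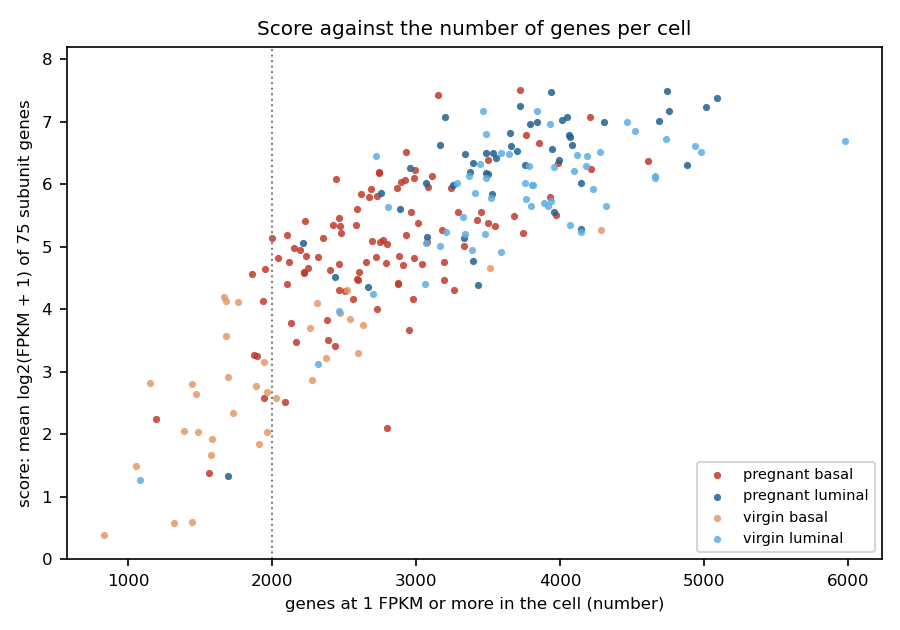
Score of each cell (y axis, mean log2(FPKM + 1) of 75 subunit genes) against the number of genes at 1 FPKM or more in the cell (x axis), coloured by group, with a dotted line at 2000 genes. The score was higher in cells with more genes in each group, and between 2000 and 3000 genes the virgin basal mean was 3.56, against 4.89 in pregnant basal cells.

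The largest differences over all cells were those of Atp5f1 (3.78), Uqcr10 (3.48) and Atp5h (3.28). Atp5f1 ranged from 0 to 919 FPKM with a median of 93.7 in pregnant basal cells and from 0 to 412 with a median of 0 in virgin basal cells. Uqcr10, a small subunit of complex III (chr11:4701973-4704342), had medians of 98.2 and 0.0396 FPKM in the same order. Atp5h, a peripheral stalk subunit whose promoter is printed above, had 212 and 13.9. With 2000 or more genes, Atp5f1 (3.58), Ndufs7 (3.02) and Atp5o (2.99) led: Ndufs7 was then found in 51 of 93 pregnant basal cells, against 1 of 12 virgin basal cells.

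By complex, all 4 genes of complex II stayed higher by 1 or more in cells with 2000 or more genes (median 2.15), as did 28 of 36 genes of complex I (1.47), 6 of 9 of complex III (1.33), 6 of 11 of complex IV (1.05) and 6 of 15 of ATP synthase (0.82). The lowest 3 differences in that set were negative. Uqcrfs1 (chr13:30540308-30545362) differed by -1.44, found in 44 of 93 pregnant basal cells, against 8 of 12 virgin basal cells, with medians of 0.694 and 18.2 FPKM, Ndufs4 by -0.58 and Cox5a by -0.26. Over all cells the same 3 were at 0.64, 0.91 and 1.16, and with 12 virgin basal cells each such value rests on few of them.

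Ribosomal protein genes had 0 of 26 past 1 in cells with 2000 or more genes (median -0.09). They are not matched to the members in level. Their mean was 9.42 in pregnant basal and 9.42 in virgin basal cells of that set, against 5.16 and 3.80 for the members. Citric acid cycle genes had 7 of 15 higher (median 0.89), glycolysis 5 of 14 (0.89), carriers 5 of 12 (0.81), assembly factors 5 of 18 higher and 3 lower (0.20), and import and ribosome genes 3 of 13 (0.35). Slc25a4 was higher by 2.77 and Vdac1 by 2.83, and the lactate dehydrogenase gene Ldhb by 1.92.

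Within each group the complexes varied together from cell to cell. Spearman rho between the scores of any 2 of the 5 complexes ranged from 0.41 to 0.80 over the pregnant basal, 0.46 to 0.87 over 49 pregnant luminal, 0.39 to 0.86 over 34 virgin basal and 0.44 to 0.80 over 54 virgin luminal cells. The score also followed the number of genes, with rho of 0.60, 0.65, 0.69 and 0.58 in the same order, and the 26 ribosomal protein genes, with 0.39, 0.59, 0.49 and 0.42. In cells with 2000 or more genes, the lowest rho between complexes was 0.38, 0.42, 0.17 and 0.41. The rho with ribosomal protein genes was then 0.36, 0.57, 0.16 and 0.39. The virgin basal values of that set come from 12 cells. All such values are within a cell and share its library and depth. Against the glycolysis score, rho over all cells of each group was 0.55, 0.67, 0.64 and 0.40. Against the alveolar score rho was 0.38 over all pregnant luminal and -0.33 over all virgin luminal cells.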

How the data were processed

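RNA-seq of 239 single cells was deposited as 1 table of FPKM values for 18850 genes. Per the submitters' processing notes, the authors used Trimmomatic 0.35, TopHat2 2.0.13 and Cufflinks 2.2.1 with the mouse build mm10 (GRCm38). The unit FPKM was inferred from these tools and the values of the deposited table; the sources used here do not give the annotation or what was done with fragments matching more than 1 gene. FPKM is a share of each cell's mapped fragments, so a few abundant genes lower all others. A value of 0 can also be a failed estimate.

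The members and gene lists were chosen with earlier results of these data known. No cell was left out, and 0 columns lacked a sample. Levels are log2(FPKM + 1), with pseudocount 1, averaged over cells. A gene entered a comparison if 25% or more of the cells had it at 1 FPKM in whichever group had the higher mean, and was counted at a difference of 1 or more. The 75 members that passed were the same in all 8 filters (4 comparisons, 2 sets of cells). Intervals are exact Clopper-Pearson at 95%, a count of 0 allows 3 cells of the group, and both cover counting error only. No test was possible with 1 sample per group, and doublets were not called: the labels say capture sites were inspected. Depth was estimated from the steps of low values in 1770 single-transcript genes of at least 1500 bases; in the median cell 78.8% of low values were whole steps within 0.12.

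Named members are core or catalytic subunits, the most abundant of each complex, isoform sets, and the 3 largest and 3 smallest differences per comparison; up to 4 genes are named per list. The values of 1 member that this rule names are not reported here. Coordinates are from GENCODE annotation of GRCm38 and promoters from RefSeq (GRCm38.p6), where 69 members matched, 3 of them by synonym. The alternatives are named in the closing section. The formula for differences was checked on simulated data, for seeded changes larger than 1 in genes found in most cells. The filters, the score and genes found in few cells were not checked in this way. Python 3.11.15, numpy 2.4.6, pandas 2.3.3, scipy 1.17.1 and matplotlib 3.10.9 were used.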

Additional observations from a re-analysis of the deposited data

How the results depend on the processing

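Alternatives were pseudocounts of 0.1 and 10, FPKM rescaled without each cell's 10 most abundant genes, no filter on members, only cells whose gene number lay in the middle 50% of all cells (2428 to 3729 genes), and virgin luminal cells with Esr1 under 1 FPKM. Basal cells with Cdh5 under 1 FPKM, members with at most 20% shared windows, cells with 2000 to 3000 genes, and cells whose own lineage list is the highest of 4 marker lists were chosen after seeing the data. The sign of the score difference was kept in 64 of 64 alternatives. In 58 it moved by less than the larger SD over cells, and 51 of 64 counts of members stayed within 1.5 times. The SD describes single cells, so a small difference can change much and still fall within it. Pregnant luminal minus virgin luminal went from 0.39 to 0.85 with Esr1 under 1 FPKM and is among the 58.

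For virgin basal minus virgin luminal, the score difference was -4.31 with pseudocount 0.1, -1.53 with 10, and -1.64 in cells in this middle range (6 virgin basal, 23 virgin luminal). With 2000 or more genes it was -2.97, -1.19 and, at 2000 to 3000 genes, -1.13, where 36 members were lower. For pregnant basal minus pregnant luminal, the members lower by 1 or more numbered 15 with pseudocount 10 and 25 of 75 in this middle range. There 0 were higher, against 21.8% of all genes lower and 12.2% higher. With 2000 or more genes, 14 were lower with pseudocount 10 and 20 at 2000 to 3000 genes. For pregnant luminal minus virgin luminal, pseudocount 10 left 1 member higher in either set of cells, Esr1 under 1 FPKM gave 27 and 22, and 2000 to 3000 genes gave 28, with 11 lower, from 6 and 5 cells; own lineage highest gave 11 with 2000 or more genes. For pregnant basal minus virgin basal, 45 of 75 members were higher in this middle range and 3 lower, from 64 and 6 cells. Of all genes in these cells, 21.1% were higher and 15% lower. With pseudocount 10, 25 members were higher in cells with 2000 or more genes. The cause of these moves was not tested. Rescaling moved the median of all genes to -1.22 in virgin basal minus virgin luminal and to -0.16 in pregnant luminal minus virgin luminal cells, against -0.96 and -0.02. No paired analysis was possible because the numbers in the labels only name cells. Only 12 virgin basal cells have 2000 or more genes, and the labels name no replicate animals.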
